A study of Mus musculus with 9 samples.

Results

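The peroxiredoxin and thioredoxin system was examined through 10 of the 54532 genes in the deposited expression table. They were taken by gene name and comprised the peroxiredoxin genes Prdx1, Prdx2, Prdx3, Prdx4, Prdx5 and Prdx6, the sulfiredoxin gene Srxn1, the thioredoxin gene Txn1, the thioredoxin reductase gene Txnrd1 and the thioredoxin-interacting protein gene Txnip. Each name occurred once in the table, and no measured value enters the rule. All 10 genes passed the filter on low values described below.

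Peroxiredoxins are abundant thiol peroxidases that reduce hydrogen peroxide with a reactive cysteine. Thioredoxin passes electrons to the oxidised peroxiredoxin and is recharged by thioredoxin reductase, a selenoprotein that draws on NADPH. At high peroxide the reactive cysteine can be over-oxidised, and sulfiredoxin repairs it, while Txnip binds reduced thioredoxin and blocks it. Macrophages make superoxide and hydrogen peroxide when they meet bacteria, and several genes of this system are known targets of Nrf2, a transcription factor that binds antioxidant response elements.

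RNA-seq was performed on RAW264.7 cells, a transformed mouse macrophage line that the labels give as wild type and as derived from ascites. Control cells were untreated, LPS-treated cells received lipopolysaccharide, a component of the bacterial outer membrane, at 1 μg/ml for 6 h, and LPS + G-CDs cells received the same LPS together with 400 μg/ml G-CDs for 6 h. G-CDs are carbon dots prepared from Glycyrrhiza. Each of the 3 groups had 3 libraries, and no group given G-CDs without LPS was analysed here. The titles of the last group name G-CDs whereas its treatment label gives LPS alone, and the combined treatment comes from the methods of the study. The paper's figure with the RNA-seq results mentions 3 independent experiments, but it also holds blots and does not say whether the libraries are meant. Because separate cultures are not stated for the libraries of a group, p-values measure only the spread between these libraries, which may be technical.

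Each library held between 14752400 and 17312255 reads on genes. All 10 macrophage markers examined, among them Adgre1, Csf1r and Itgam, had an FPKM (reads scaled to gene length and library size) of at least 1 in every library, with summed levels of 2840 to 3990 FPKM in control, 4050 to 4270 FPKM in LPS and 3420 to 5690 FPKM in LPS + G-CDs libraries. The 5 markers each of T cells, B cells, fibroblasts, epithelium and endothelium were all under 1 FPKM in every library. As these are bulk samples, a change in the number of cells of a type and a change in RNA per cell cannot be told apart. The median replicate SD of a tested gene was 0.244 log2 units in control, 0.087 in LPS and 0.259 in LPS + G-CDs libraries. Part of this spread followed gene length, since genes of at most 1970 bases had a median deviation of -0.27 in LPS + G-CDs replicate 1 and 0.30 in replicate 3, against 0.24 and -0.23 for genes of at least 6128 bases.

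Promoter sequences are shown for the 3 genes whose promoter window held the core of an antioxidant response element, upstream of the annotated start in Prdx1 and Txnrd1 and downstream of it in Srxn1, because these genes include the pair that changed most when G-CDs were added. RefSeq promoters (GRCm38.p6, 250 bases before to 50 after the annotated start) matched 9 of the 10 genes with 11 starts, and Prdx6 had no entry. The core TGACNNNGC, searched on both strands, occurred in Prdx1, in Srxn1 and in the second of the 3 annotated starts of Txnrd1, each time on the strand opposite to the gene. Capitals mark its reverse complement in the sequences below.
Prdx1, chr4:116685349-116685543, plus strand: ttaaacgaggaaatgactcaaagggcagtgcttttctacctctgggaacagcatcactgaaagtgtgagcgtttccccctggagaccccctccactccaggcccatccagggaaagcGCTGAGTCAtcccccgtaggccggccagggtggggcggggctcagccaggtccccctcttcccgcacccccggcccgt
Txnrd1, chr10:82858956-82859178, plus strand: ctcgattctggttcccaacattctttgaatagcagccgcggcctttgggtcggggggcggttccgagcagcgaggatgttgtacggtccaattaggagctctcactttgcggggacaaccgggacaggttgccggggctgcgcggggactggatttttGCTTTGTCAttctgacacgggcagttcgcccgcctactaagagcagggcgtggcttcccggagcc
Srxn1, chr2:152105542-152105570, plus strand: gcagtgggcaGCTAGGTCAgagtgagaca
Counted from the annotated start without a position 0, the first marked base lay at position -133 in Prdx1, -92 in Txnrd1 and 29 in Srxn1. Across all promoters of the same length, 12.4% of 32851 held the core, so a match is a description and not evidence of a site. The E-box CACGTG occurred in Prdx4 and in 7.15% of all promoters, and an NF-κB motif in Txn1 and in 1.63%. These motifs do not overlap one another in the members' promoters.

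Across the system, 2 genes were called higher when G-CDs were added to LPS, a larger share than among all tested genes. With LPS itself, 2 others were called higher, which was near the share of all tested genes. Values were compared as log2(FPKM + 1) with limma over the 11585 genes that reached 1 FPKM in 3 or more libraries, and a gene was called at a Benjamini-Hochberg adjusted p under 0.05. Srxn1 and Prdx1 were higher in LPS + G-CDs than in LPS-treated cells, which is 2 of 10 genes where 0.492% of all tested genes were called in that comparison and 0.25% were called higher. With a library left out, 1 to 2 members and 11 to 256 of all tested genes were called there, instead of 57. Prdx5 and Txnrd1 were higher in LPS-treated than in control cells, again 2 of 10. That share was below the 31.3% of all tested genes called in this comparison and near the 15.8% called higher. Txnrd1 was also higher in LPS + G-CDs than in LPS libraries without overlap (log2 fold change 0.77), but was not called there (limma adjusted p = 0.13). All 4 of these genes were higher in LPS + G-CDs than in control cells (background 25.3%, of which 12.8% higher). No member was called lower in this main fit, where 0.242%, 15.6% and 12.4% of all tested genes were. This balance depended on the filter, the libraries and the scaling. Txnip was called lower in LPS + G-CDs than in control cells without the filter (limma adjusted p = 0.034) and without control replicate 1 (0.042). Prdx4 was called lower in LPS-treated than in control cells with the 6 libraries of that comparison alone (0.048) and without LPS + G-CDs replicate 3 (0.049). After rescaling to TPM, which moved the median of all tested genes to -0.21 for LPS against control and to -0.33 for LPS + G-CDs against control, the former had 1 member higher (Prdx5) and 4 lower (Prdx4, Prdx6, Srxn1 and Txnip), and the latter had 4 higher and 2 lower (Prdx6 and Txnip). On that scale 8.76% of all tested genes were called higher and 26.8% lower for LPS against control, and 6.52% higher and 28.1% lower for LPS + G-CDs against control. The 3 comparisons share their libraries and are not independent of each other. The median log2 fold change of the 10 genes was 0.53 for LPS + G-CDs against LPS, -0.17 for LPS against control and 0.42 for LPS + G-CDs against control, beside 0.02, 0.02 and 0.03 for all tested genes.

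**Figure D1:**
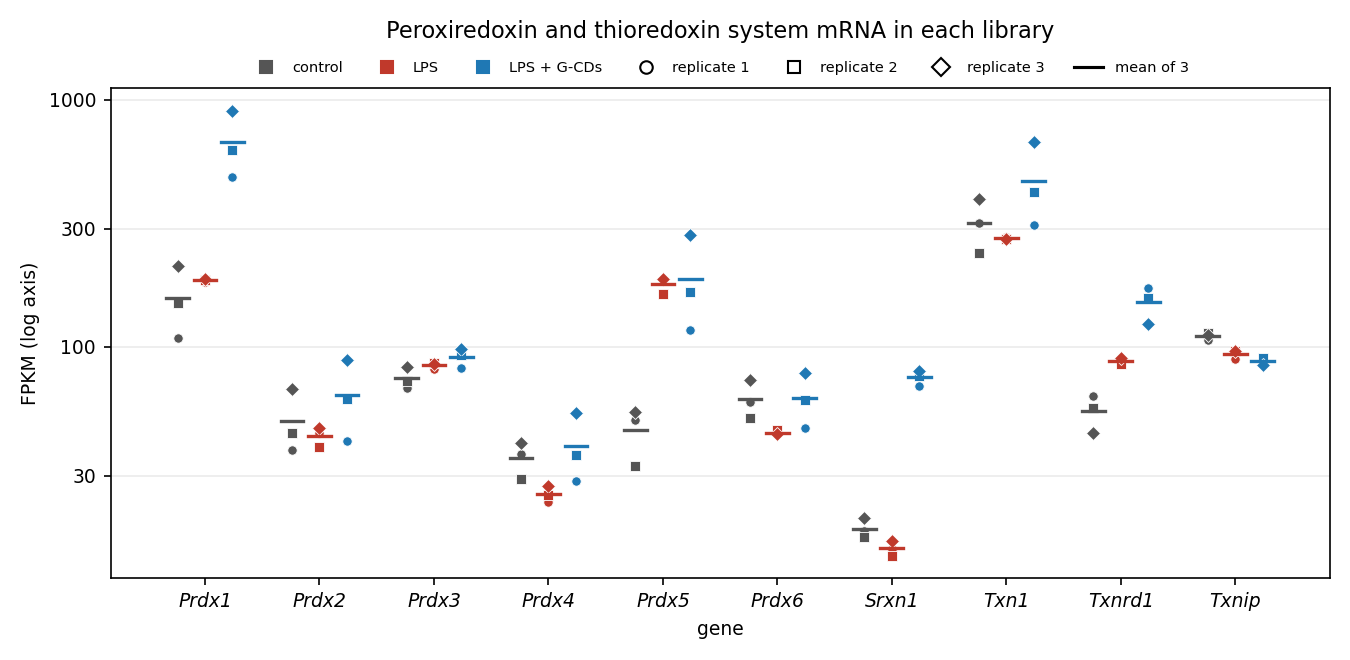
FPKM (log axis) of each of the 10 genes in every library, with colour for the group, point shape for the replicate number and a line for the mean of 3. Prdx1 and Srxn1 stand apart in the LPS + G-CDs libraries (488 to 906 and 69.5 to 80.0 FPKM), Prdx5 in both LPS-treated groups, and the LPS libraries lie closer together than those of the other groups.

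Sulfiredoxin was the member with the clearest response to G-CDs. Srxn1 (ENSMUSG00000032802, chromosome 2, 152105516 to 152111376, plus strand) measured 18.0, 17.0 and 20.2 FPKM in control, 15.2, 14.3 and 16.4 FPKM in LPS and 69.5, 76.0 and 80.0 FPKM in LPS + G-CDs replicates 1, 2 and 3. Its lowest library held 556 reads on the gene and its highest 3559. Each LPS + G-CDs library was thus above every other library by a wide margin, while all LPS libraries lay slightly below all control libraries. The log2 fold change of LPS + G-CDs against LPS was 2.22 (95% interval 1.96 to 2.49, adjusted p = 9.6e-05), or 4.67-fold on the FPKM + 1 scale. Against control it was 1.98 (adjusted p = 4e-06). Both calls were kept in all 18 alternative analyses. The difference between LPS and control was -0.25 (interval -0.51 to 0.02, adjusted p = 0.14) and was not called, except on TPM values (-0.51, adjusted p = 0.0096). The principal transcript of Srxn1 shared no 50-base word with another annotated gene. The replicate SD of Srxn1 among LPS + G-CDs libraries, 0.10 in log2 units, was the second smallest of the 10 genes.

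Among the peroxidases, Prdx1 was the one called with G-CDs. Prdx1, a cytosolic peroxiredoxin that sulfiredoxin can repair (ENSMUSG00000028691, chromosome 4, 116685544 to 116700822, plus strand), measured 108, 151 and 213 FPKM in control, 182.5, 186 and 188 FPKM in LPS and 488, 626 and 905.5 FPKM in LPS + G-CDs replicates. Every LPS + G-CDs library exceeded every other library, but the libraries of that group and of control were widely spread, while those of LPS nearly coincided. The log2 fold change against LPS was 1.81 (interval 1.17 to 2.45, adjusted p = 0.037), or 3.50-fold, and against control 2.10 (adjusted p = 0.00069). The direction was the same in all 18 alternatives for both comparisons. The call against LPS was lost in 9 of the 18, with adjusted p between 0.013 and 0.20 over all of them, among them the fits without any single LPS library (0.15 to 0.20) and without LPS + G-CDs replicate 2 (0.18), LPS + G-CDs replicate 3 (0.089) or control replicate 2 (0.079). LPS against control gave 0.29 (interval -0.35 to 0.93, adjusted p = 0.48).

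Processed pseudogenes share sequence with Prdx1. Of the 50-base words of its principal transcript, 10.9% also occur in 3 of them, so reads could be split. The pseudogene Gm21399, named here after its values were seen, measured 9.33, 8.49 and 6.45 FPKM in LPS and 18.8, 24.2 and 26.4 FPKM in LPS + G-CDs libraries (log2 fold change 1.41, adjusted p = 0.023). It moved the same way as Prdx1 at a much lower level, and how reads were shared between them was not tested.

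The peroxidase that rose with LPS was Prdx5. This gene encodes an atypical peroxiredoxin found in mitochondria, peroxisomes and cytosol (ENSMUSG00000024953, chromosome 19, 6906697 to 6910106, minus strand). It measured 50.6, 32.8 and 54.7 FPKM in control, 187, 163 and 189 FPKM in LPS and 117, 167 and 283 FPKM in LPS + G-CDs replicates. All 6 libraries with LPS lay above all control libraries, while the LPS + G-CDs libraries spanned the LPS ones on both sides. The rise with LPS was 1.97 (interval 1.26 to 2.68, adjusted p = 0.0014), or 3.92-fold, and that of LPS + G-CDs over control was 1.95 (adjusted p = 0.0018). Each was called in all 18 alternatives. Between the LPS-treated groups the difference was -0.02 with an interval of -0.73 to 0.69, so that neither a fall nor a rise within these bounds could be seen at this spread. Its sign depended on the libraries included, and without LPS + G-CDs replicate 1 it was 0.28. Prdx5 overlaps Trmt112 on the opposite strand and shares 29.7% of its 50-base words with it. The strand setting of the counting is not given in the sources used here. Trmt112 itself measured 40.4, 36.3 and 39.9 FPKM in LPS and 81.6, 39.2 and 61.9 FPKM in control libraries (log2 fold change -0.58, adjusted p = 0.22). The part of this overlap in the Prdx5 values was not tested.

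The remaining peroxiredoxins were not called in any comparison of all libraries with FPKM as deposited. Prdx2, the second cytosolic typical enzyme (ENSMUSG00000005161, chromosome 8, 84969587 to 84974834, plus strand), measured 38.1, 44.75 and 67.4 FPKM in control, 44.8, 39.4 and 46.9 FPKM in LPS and 41.5, 61.2 and 88.8 FPKM in LPS + G-CDs replicates. The groups overlapped in all comparisons. Its log2 fold change of LPS + G-CDs against LPS was 0.47 (interval -0.18 to 1.12, adjusted p = 0.37). Of the Prdx2 50-base words, 23.8% occur in other genes, among them Junb and Rnaseh2a on the opposite strand. Junb rose by 2.79 on the log2 scale with LPS (adjusted p = 4.4e-06). Reads of Prdx2 may therefore be uncertain, and how reads were shared between these genes was not tested.

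Prdx3, the mitochondrial enzyme (ENSMUSG00000024997, chromosome 19, 60864051 to 60874556, minus strand), stayed between 68.4 and 98.1 FPKM over all 9 libraries, with means of 74.6, 84.2 and 91.0 FPKM in control, LPS and LPS + G-CDs. Its difference between LPS + G-CDs and LPS was 0.11 (interval -0.18 to 0.39), which excludes neither direction and turned to -0.06 after rescaling to TPM. For LPS against control the value was 0.18 (adjusted p = 0.33), and it was called only after removal of the trend with gene length (0.32, adjusted p = 0.046) or principal transcript length (0.31, adjusted p = 0.029). Prdx4, which resides in the endoplasmic reticulum (ENSMUSG00000025289, chromosome X, 155323918 to 155340754, minus strand), measured 36.8, 29.0 and 40.7 FPKM in control, 23.6, 25.1 and 27.3 FPKM in LPS and 28.5, 36.6 and 53.7 FPKM in LPS + G-CDs replicates. The LPS libraries were the lowest of the 3 groups without overlap. The difference of LPS from control was -0.46 (interval -0.97 to 0.04, adjusted p = 0.15) and that of LPS + G-CDs from LPS was 0.58 (interval 0.08 to 1.09, adjusted p = 0.31). The first of these was called without LPS + G-CDs replicate 3 (adjusted p = 0.049) and in 3 further alternatives.

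Prdx6 followed the same order. This enzyme, which uses glutathione in place of thioredoxin (ENSMUSG00000026701, chromosome 1, 161240112 to 161251219, minus strand), measured 59.6, 51.3 and 73.6 FPKM in control, 44.2, 45.9 and 44.45 FPKM in LPS and 46.75, 60.8 and 78.4 FPKM in LPS + G-CDs replicates. Again all LPS libraries lay below those of both other groups. The differences were -0.43 for LPS against control (interval -0.88 to 0.02, adjusted p = 0.14) and 0.43 for LPS + G-CDs against LPS (interval -0.03 to 0.88, adjusted p = 0.33). For LPS + G-CDs against control the value was 0.00 with an interval of -0.46 to 0.45. On TPM values Prdx6 was called lower than control both with LPS (-0.70, adjusted p = 0.002) and with LPS + G-CDs (-0.44, adjusted p = 0.021).

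The make-up of the peroxiredoxin mRNA pool differed between the groups. The summed FPKM of the 6 genes was 425 ± 93.3 in control, 563 ± 17.7 in LPS and 1118 ± 357 in LPS + G-CDs libraries (SD, n = 3). Prdx1 accounted for 36.5% ± 5.7 of the sum in control, 33.0% ± 1.03 in LPS and 60.2% ± 0.393 in LPS + G-CDs (SD, n = 3). In the last group its share lay between 60.0% and 60.7% although the sum ranged from 804 to 1507 FPKM, so Prdx1 and the sum of the other 5 genes changed in proportion between those libraries. The share of Prdx5 was 11.0% ± 2.76 in control, 31.9% ± 1.73 in LPS and 16.4% ± 2.14 in LPS + G-CDs (SD, n = 3). Prdx3 held 17.8%, 15.0% and 8.54%, Prdx6 14.6%, 7.97% and 5.61%, Prdx2 11.7%, 7.75% and 5.64%, and Prdx4 8.48%, 4.49% and 3.54% in the same order. Cells that also received G-CDs thus held mostly Prdx1. Levels per gene depend on the length used, and with the length of the principal transcript instead of the merged gene model Prdx1 made up 31.4%, 28.6% and 54.8% and Prdx5 12.0%, 35.3% and 19.1%. In LPS libraries the order of these 2 genes therefore depended on the length used, since Prdx5 exceeded Prdx1 without overlap only with the principal transcript.

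**Figure D2:**
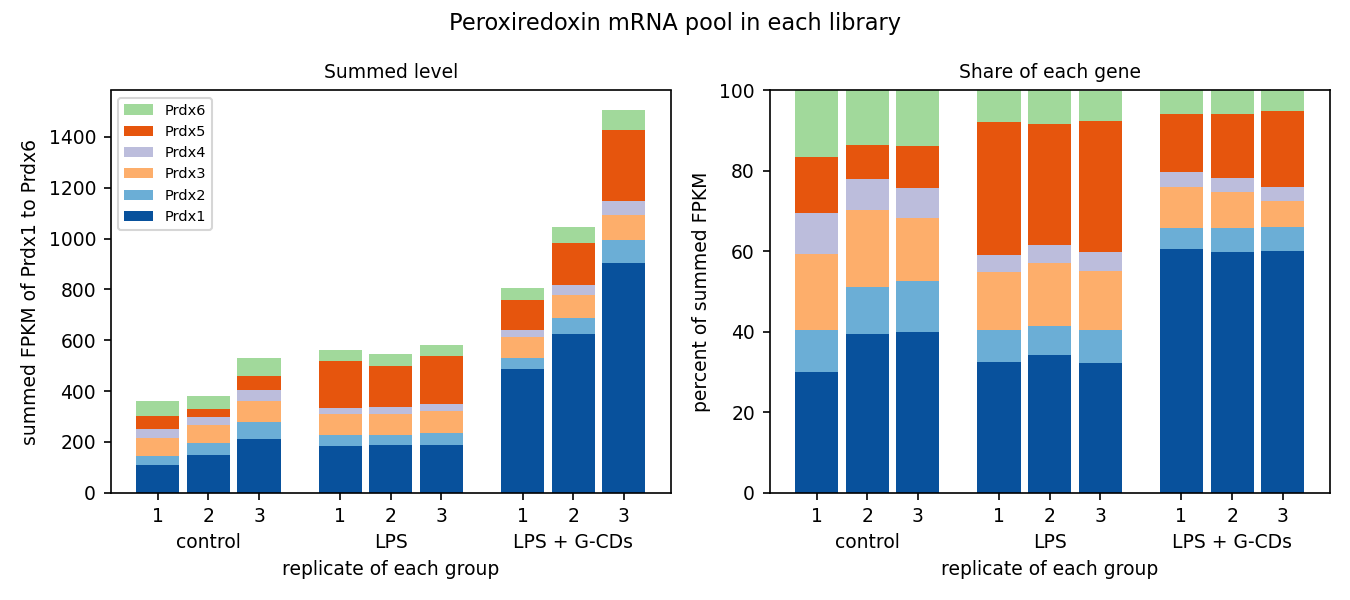
Summed FPKM of Prdx1 to Prdx6 (left) and the percent of that sum held by each gene (right) in every library, grouped by treatment with replicate numbers below the bars. The sum rises to between 804 and 1507 FPKM in LPS + G-CDs libraries, while the Prdx1 share there is 60.0% to 60.7%.

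Txn1, the cytosolic thioredoxin (ENSMUSG00000028367, chromosome 4, 57943373 to 57956411, minus strand), measured 317, 241 and 398 FPKM in control, 278, 274 and 273 FPKM in LPS and 310, 423 and 673 FPKM in LPS + G-CDs replicates. The LPS + G-CDs libraries were all above the LPS libraries, but the nearest ones were only 278 and 310 FPKM, and control libraries overlapped both groups. The log2 fold change against LPS was 0.69 (interval 0.04 to 1.34, adjusted p = 0.32) and was not called in any of the 18 alternatives. LPS against control gave -0.18 (interval -0.83 to 0.47). In FPKM, which divides by the merged gene length, the level of Txn1 exceeded that of Prdx1, the next gene, without overlap in the control and LPS groups, whereas Prdx1 came first in the LPS + G-CDs group at 673 FPKM and Txn1 followed at 469 FPKM with overlapping libraries. This order depended on the length used. Divided by the principal transcript length instead, Txn1 and Prdx1 libraries overlapped in control, and in LPS-treated cells Prdx5 came first with a mean level of 304 against 275 for Txn1, also with overlap.

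Thioredoxin reductase was lowest in control and highest in LPS + G-CDs cells. Txnrd1, the cytosolic selenoenzyme that reduces thioredoxin (ENSMUSG00000020250, chromosome 10, 82833951 to 82897712, plus strand), measured 63.4, 56.3 and 44.6 FPKM in control, 86.6, 85.5 and 89.9 FPKM in LPS and 173, 157 and 124 FPKM in LPS + G-CDs replicates. The groups did not overlap in any comparison. The rise with LPS was 0.68 (interval 0.29 to 1.07, adjusted p = 0.016) and that of LPS + G-CDs over control 1.45 (interval 1.06 to 1.84, adjusted p = 0.00031), or 2.73-fold. The call for LPS against control was lost without any one of the LPS libraries (adjusted p = 0.052 to 0.061) and on TPM values (log2 fold change 0.41, adjusted p = 0.25). The step from LPS to LPS + G-CDs was 0.77 (interval 0.38 to 1.16), with an adjusted p of 0.13. It did meet the looser criterion of an unadjusted limma p under 0.01 with over 1.5-fold change at 1.71-fold. By that criterion 3 members were higher in LPS + G-CDs than in LPS-treated cells (Prdx1, Srxn1 and Txnrd1, background 1.24%), 2 in LPS than in control cells (background 11.9%) and 4 in LPS + G-CDs than in control cells (background 9.83%).

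At 7086 bases the merged model of Txnrd1 is the longest of the 10, and its libraries deviated in the order opposite to most members, with LPS + G-CDs replicate 1 at 0.20 and replicate 3 at -0.27 from their mean on the log2 scale. After the trend with gene length was removed from each library, the step from LPS to LPS + G-CDs was 0.92 with an adjusted p of 0.007, and with principal transcript lengths 0.84 with an adjusted p of 0.021. The same 2 corrections raised the number of all tested genes called in this comparison from 57 to 89 and 115. The principal transcript of Txnrd1 (3531 bases) shared no 50-base word with another gene. The rest of the merged model was not searched, and the Txnrd1 interval contains Eid3 on the same strand and the antisense genes Gm38560 and Gm47073.

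Txnip, the brake on thioredoxin, had the smallest replicate SD of the 10 genes in control (0.042 log2 units) and LPS + G-CDs libraries (0.049). Txnip (ENSMUSG00000038393, chromosome 3, 96557957 to 96561883, plus strand) measured 107, 113 and 111.5 FPKM in control, 89.6, 95.95 and 95.9 FPKM in LPS and 87.8, 90.3 and 84.4 FPKM in LPS + G-CDs replicates. Both LPS-treated groups lay below control without overlap, and they overlapped each other. The difference of LPS from control was -0.24 (interval -0.48 to 0.01, adjusted p = 0.13), that of LPS + G-CDs from LPS was -0.10 (interval -0.35 to 0.15, adjusted p = 0.58) and that of LPS + G-CDs from control was -0.34 (interval -0.58 to -0.09, adjusted p = 0.052). The last value passed an adjusted p of 0.05 in 6 of the 18 alternatives, among them the fit without control replicate 1 (adjusted p = 0.042) and that on TPM (adjusted p = 0.0046), with log2 fold changes from -0.77 to -0.31 over all of them. On TPM, Txnip was also called lower in LPS than in control cells (-0.50, adjusted p = 0.03). Reads of Txnip may be shared with Gm15441, an antisense gene that holds 18.5% of its 50-base words but stayed at or under 0.64 FPKM in every library.

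The ratio of Txnip to Txn1 mRNA, formed from FPKM within each library, was 0.363 ± 0.0976 in control, 0.341 ± 0.0167 in LPS and 0.207 ± 0.079 in LPS + G-CDs (SD, n = 3). It ranged from 0.125 to 0.283 in the last group and from 0.28 to 0.47 in control, so those groups met at their edges, while all LPS libraries, from 0.322 to 0.351, were above all LPS + G-CDs libraries. This ratio concerns mRNA only. Neither Txnip nor Txn1 was called between LPS + G-CDs and LPS (limma adjusted p = 0.58 and 0.32). Their merged models differ in length (3123 and 1051 bases), and how far the trend with gene length entered the ratio was not tested.

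**Figure D3:**
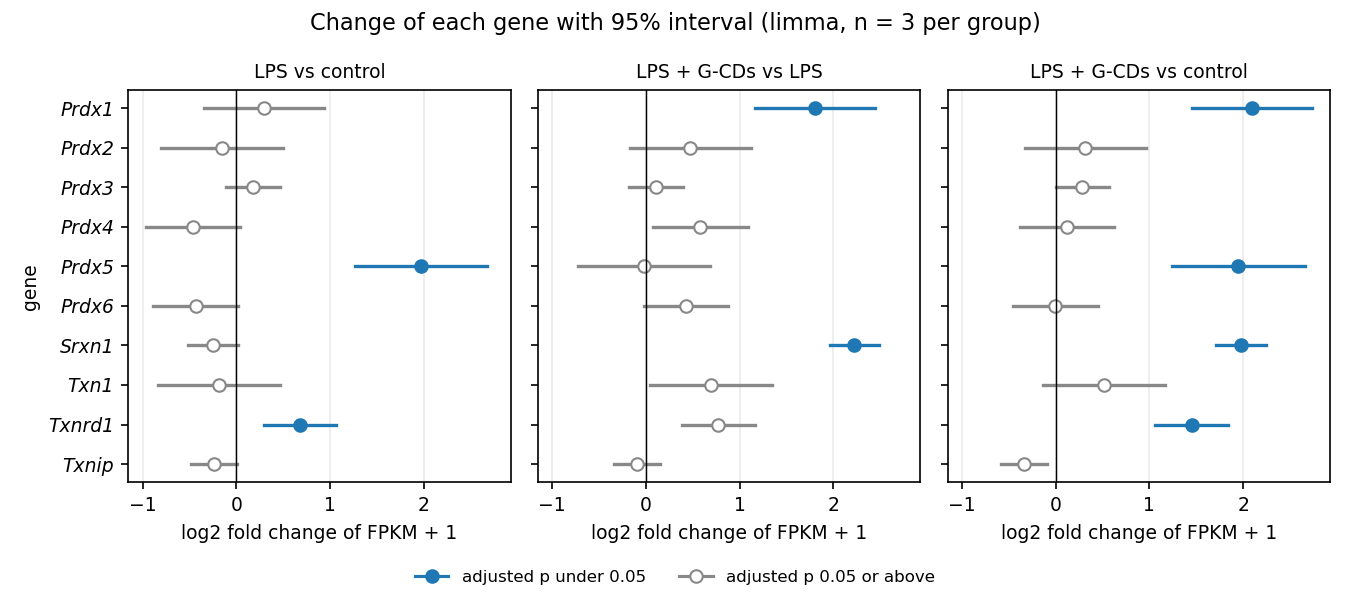
Log2 fold change of FPKM + 1 with its 95% interval for each gene in the 3 comparisons (limma, n = 3 per group), with filled points for an adjusted p under 0.05. Prdx5 and Txnrd1 are filled for LPS against control, Prdx1 and Srxn1 for LPS + G-CDs against LPS, and these 4 for LPS + G-CDs against control.

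Groups were also compared by whether their 3 libraries overlapped. Between LPS + G-CDs and LPS, 6 members were higher without overlap, namely Prdx1, Prdx4, Prdx6, Srxn1, Txn1 and Txnrd1, where 12.9% of all tested genes were, and none was lower, where 15.0% were. Between LPS and control, Prdx5 and Txnrd1 were higher without overlap (background 27.4%) and Prdx4, Prdx6, Srxn1 and Txnip lower (background 25.1%). LPS + G-CDs libraries exceeded control without overlap for Prdx1, Prdx5, Srxn1 and Txnrd1 (background 17.7%) and fell below it for Txnip (background 16.6%). Prdx4, Prdx6 and Srxn1 thus had LPS levels in FPKM below those of both other groups. The share of all tested genes with this joint pattern was not computed. None of these genes was called between LPS and control in the main fit (limma adjusted p = 0.14 to 0.15). Whether libraries overlap also depends on their spread, which was smallest in LPS (median replicate SD 0.087 log2 units).

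The spread between replicates had a common pattern. In LPS + G-CDs, replicate 3 was the highest and replicate 1 the lowest library for the same 8 members, the exceptions being Txnrd1 and Txnip, and in control replicate 3 was the highest for these 8 as well. Of all tested genes, 46.4% were highest in LPS + G-CDs replicate 3 and 45.9% lowest in replicate 1 within that group, and 35.7% were highest in control replicate 3. Deviations from the group mean reached 0.68 on the log2 scale for Prdx5 and 0.59 for Txn1 in LPS + G-CDs replicate 3, against 0.09 for Srxn1. Removing the trend with principal transcript length, a step added after seeing the data, lowered the replicate SD of Txn1 in that group from 0.56 to 0.23, of Prdx4 from 0.45 to 0.11, of Prdx5 from 0.64 to 0.34, of Prdx1 from 0.45 to 0.35 and of Prdx6 from 0.37 to 0.28. The SD of Prdx3 went from 0.127 to 0.14 and that of Txnip from 0.049 to 0.058. What set these libraries apart was not tested.

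**Figure D4:**
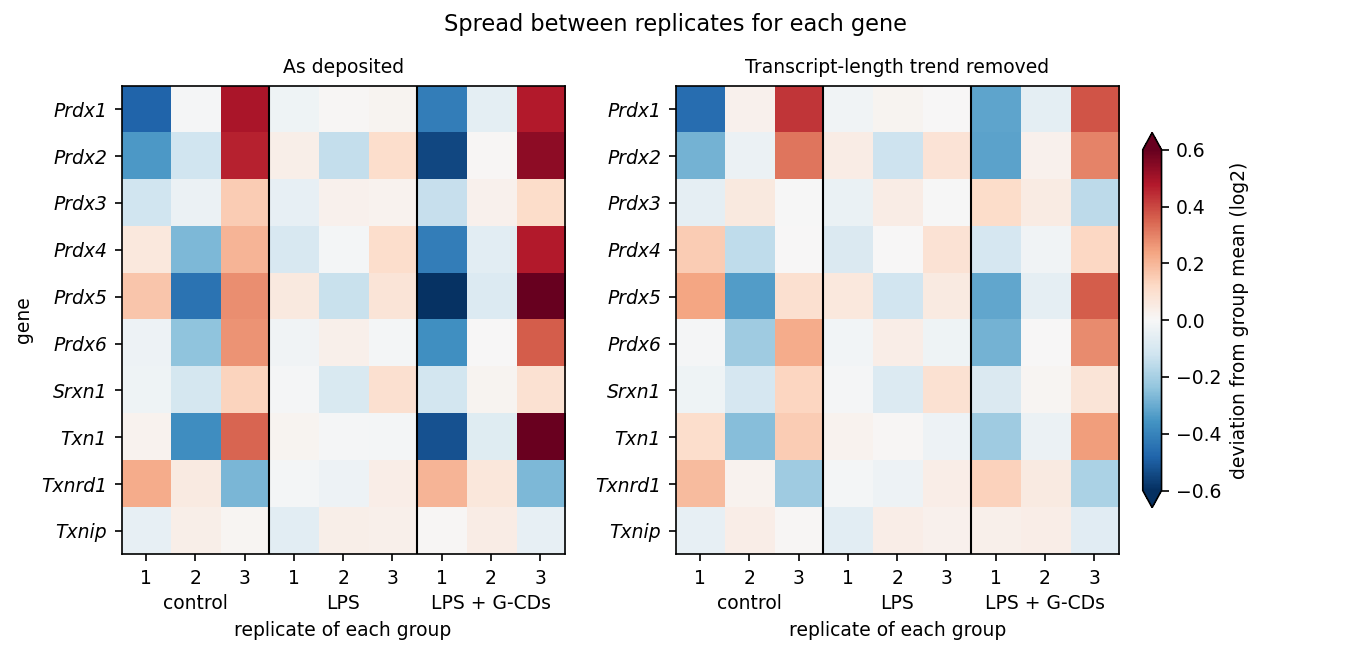
Deviation of each library from its group mean of log2(FPKM + 1) for each gene, as deposited (left) and after the trend with principal transcript length was removed (right), in columns for the replicates of each group. In LPS + G-CDs replicate 3, Prdx5 and Txn1 lie 0.68 and 0.59 above their mean as deposited, and 0.36 and 0.25 above it after removal, while the LPS libraries are nearly white.

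Across the 9 libraries, the genes whose log2(FPKM + 1) most resembled that of Srxn1 were Gclm (r = 0.997), a subunit of the glutathione-making ligase, Hmox1 (r = 0.982), which encodes heme oxygenase-1, and Zdhhc18 (r = 0.966). Gclm went from 9.28 ± 0.481 FPKM in LPS to 41.0 ± 3.79 FPKM in LPS + G-CDs libraries, and Hmox1 from 76.4 ± 3.71 to 728 ± 90.1 FPKM (SD, n = 3). Prdx1 was most like Esd (r = 0.991), which encodes the detoxifying esterase D, followed by Slc25a12 (r = 0.987) and Rnf183 (r = 0.984). For Txnrd1 these were Acsbg1 (r = 0.986), Slc1a4 (r = 0.974) and Sh2d5 (r = 0.969), and for Txnip they were Mthfd1 and Dtl (r = 0.981 each) and Nfam1 (r = 0.98). These are Pearson correlations over libraries that share groups and depth, chosen as the highest of all tested genes, and they are descriptions. Within the system, the level of Txnip ran against that of Prdx5 (r = -0.907) and Txnrd1 (r = -0.884), and Prdx4 and Prdx6 went together (r = 0.965).

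Of 22 relatives of thioredoxin and its reductases, 2 were called higher and 3 lower in LPS-treated than in control cells, with a median log2 fold change of -0.10. This is 22.7% of the list, beside 31.3% of all tested genes. Glrx, which encodes glutaredoxin, rose from 3.76 ± 1.65 to 31.4 ± 1.29 FPKM (log2 fold change 2.83, adjusted p = 4.8e-05) and stood at 37.9 ± 6.48 FPKM in LPS + G-CDs (SD, n = 3). The membrane thioredoxin-related gene Tmx4 rose by 1.34 and Tmx2 fell by 1.07 on the log2 scale. With LPS + G-CDs against control, 4 were higher and 2 lower (27.3%, beside 25.3% of all tested genes), among them Txnl1 (0.76, adjusted p = 0.03), whose call was lost in 10 of 18 alternatives, including those without any one of control replicates 1 and 2, the LPS replicates and LPS + G-CDs replicates 2 and 3 (adjusted p = 0.053 to 0.086). Between LPS + G-CDs and LPS none of the 22 was called by limma or by voom, 3 had an unadjusted p under 0.05, as did 15.2% of all tested genes, and the median was 0.24. The mitochondrial partners of Prdx3, Txn2 and Txnrd2, singled out after their values were seen, differed by 0.29 (adjusted p = 0.43) and 0.23 (adjusted p = 0.46) in that comparison.

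A list of 15 genes, headed as substrates and partners of thioredoxin, also held sestrin genes, whose relation to thioredoxin was not tested. Of these 15, 12 were tested, and 6 were called lower and 1 higher in LPS-treated than in control cells (median -0.63). Among all tested genes, 15.6% were called lower and 15.8% higher. With LPS + G-CDs against control, 4 were called lower and 1 higher (median -0.40), beside 12.4% and 12.8% of all tested genes. Sesn1, a stress-inducible sestrin, fell from 23.2 ± 3.48 to 4.32 ± 0.413 FPKM with LPS (log2 fold change -2.18, adjusted p = 4.5e-06), whereas Sesn2 rose from 8.06 ± 0.863 to 34.1 ± 0.292 FPKM (1.96, adjusted p = 3.4e-06) (SD, n = 3). Rrm2, a subunit of ribonucleotide reductase that thioredoxin recharges, had a log2 fold change of -0.99 with LPS (adjusted p = 0.00025) and of -1.01 with LPS + G-CDs (adjusted p = 0.00026), both against control, and of -0.02 between the LPS-treated groups (adjusted p = 0.92). Msrb2, a methionine sulfoxide reductase, had a log2 fold change of -1.02 with LPS against control (adjusted p = 0.024). The Msrb2 call was lost without control replicate 1 (adjusted p = 0.078) and without any one of the LPS libraries (adjusted p = 0.052 to 0.088). Between LPS + G-CDs and LPS none of the 12 was called by limma or voom, and 1, Sesn2, had an unadjusted p under 0.05, beside 15.2% of all tested genes.

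Of 8 tested relatives and regulators of Txnip, 3 were called higher and 2 lower with LPS, where 15.8% of all tested genes were called higher and 15.6% lower. Nlrp3, an inflammasome sensor that Txnip can bind, rose from 21.6 ± 6.8 to 260 ± 0.881 FPKM (log2 fold change 3.57, adjusted p = 9.5e-06) and measured 176 ± 45.8 FPKM in LPS + G-CDs cells (SD, n = 3). The glucose transporter gene Slc2a1 rose by 1.32 and the arrestin relative Arrdc2 fell by 1.26 on the log2 scale. None of the 8 was called between LPS + G-CDs and LPS by limma or voom, and 3 had an unadjusted p under 0.05, beside 15.2% of all tested genes.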

How the data were processed

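RNA-seq libraries of RAW264.7 cells (3 groups of 3) were used. The authors deposited FPKM per gene and library with coordinates and gene lengths. The aligner, counter and strand setting are not given in the sources used here, and the submitters' processing notes name GRCm38 and mm10. Coordinates of all 10 genes equalled GENCODE mouse release M21. FPKM times length gave whole reads (within 0.05) in 100.0% of values. The library size used was 1.108 to 1.14 times the reads on genes in control libraries. It was 0.929 to 0.936 times in LPS and 0.88 to 0.98 times in LPS + G-CDs libraries. The deposited values thus hold a scaling that differed between control and the other groups. The voom alternative used the same library sizes. No count model served as the main test. 0 columns belonged to other samples.

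From these FPKM values, log2(FPKM + 1) of 11585 genes (1 FPKM or more in 3 or more libraries) was analysed in R 4.3.3 with limma 3.58.1 (lmFit, eBayes with trend, 1 model for 9 libraries, two-sided, Benjamini-Hochberg adjustment over all tested genes). This scale understates changes of low genes. The criterion of p under 0.01 with over 1.5-fold change was taken from the paper. The fit was also run on simulated data with the same dispersion in all groups and no length trend. That run therefore does not cover the unequal spread and length trend of these libraries. Tables were prepared with Python 3.11.15 and pandas 2.3.3. Shared sequence is the share of 50-base words of a gene's principal transcript found also in a transcript of another gene of GENCODE M21. Other transcripts of the members were not searched.

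Members, lists and tests were chosen with earlier results of these data known. Named were all members, up to 3 called, non-overlapping genes with the largest change per list and comparison, and the 3 genes most correlated with Srxn1, Prdx1, Txnrd1 and Txnip. Lists held relatives of thioredoxin, its substrates and partners with the sestrins, relatives of Txnip, selenoprotein synthesis, oxidative folding and cell type markers.

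Groups share replicate numbers whose meaning is not stated. Control and LPS libraries with the same number deviated from their group means with correlations of 0.103, 0.137 and 0.113, which exceed 0.1, the limit for pairing. The corresponding correlations were 0.095, 0.08 and 0.143 between LPS and LPS + G-CDs, and 0.28, 0.057 and 0.653 between control and LPS + G-CDs, where libraries of different number reached 0.504. All values in the report come from the fit without pairing, and the replicate block was an alternative. Alternatives were a pseudocount of 0.1, no filter, TPM, median-of-ratios scaling, 6 libraries alone, voom on the recovered reads, a replicate block, removal of the gene-length trend and each library left out. Removal with principal transcript lengths was added after seeing the data.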

Additional observations from a re-analysis of the deposited data

How the results depend on the processing

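For the 10 members in 3 comparisons, 540 values were recomputed over 18 alternatives each. Of these, 491 kept direction and side of the threshold, 13 lost a call, 18 gained one and 18 changed sign, none of them among the 8 called results. The causes were not tested.

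Members called between LPS + G-CDs and LPS numbered 1, Srxn1, with a pseudocount of 0.1, without a filter and with 6 libraries alone, and 1 to 2 with a library left out. Between LPS and control there were 5 on TPM (Prdx5 higher, and Prdx4, Prdx6, Srxn1 and Txnip lower), 4 with the principal-transcript trend removed and 1 to 3 with a library left out. All tested genes called in that comparison numbered 3630, 4121 on TPM (3106 of them lower) and 4656 with the principal-transcript trend removed. All tested genes called between LPS + G-CDs and LPS, 57 in the main analysis, numbered 25 with a pseudocount of 0.1, 37 on TPM, 25 with 6 libraries alone, 89 and 115 with the gene-length and principal-transcript trends removed, and 11 (without LPS + G-CDs replicate 2) to 256 (without LPS + G-CDs replicate 1) with a library left out. Against control, LPS + G-CDs gave 2927, 1789 with 6 libraries alone and 1914 (without LPS + G-CDs replicate 2) to 3245 with a library left out. On TPM the median of all genes was -0.12 for LPS + G-CDs against LPS, -0.21 for LPS against control and -0.33 for LPS + G-CDs against control, and the share of calls that were higher went from 50.3% to 24.6% for LPS against control and from 50.8% to 18.8% for LPS + G-CDs against control. With a pseudocount of 0.1 it went from 50.9% to 72.0% for LPS + G-CDs against LPS.

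Sign changes concerned uncalled values. Prdx3 went from 0.11 to -0.06 on TPM, -0.15 and -0.12 with the gene-length and principal-transcript trends removed (LPS + G-CDs against LPS), to -0.089 (LPS against control) and -0.15 (LPS + G-CDs against control) on TPM. Prdx5 between the LPS-treated groups ranged from -0.36 to 0.28 with a library left out. Prdx2 lay between -0.33 and 0.076 for LPS against control with a library left out and at -0.11 on TPM for LPS + G-CDs against control. In the last comparison, Prdx4 went from 0.12 to -0.31 on TPM, -0.038 with the principal-transcript trend removed and -0.12 to 0.33 with a library left out, and Prdx6 from 0.00 to 0.033 with the gene-length trend removed and -0.19 to 0.18 with a library left out, while on TPM Prdx6 stood at -0.44 and was called (adjusted p = 0.021). With principal transcript lengths, chosen after seeing the data, the Prdx1 share of the pool was 28.6% in LPS and 54.8% in LPS + G-CDs, and the Txnip to Txn1 ratio in LPS was 0.381.

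With the replicate number as a block, the paired fit called 2, 2 and 4 members in the 3 comparisons and changed no member's call. Prdx1 against LPS had an adjusted p of 0.016 there. The block gave 4104 genes for LPS against control, 53 for LPS + G-CDs against LPS and 3347 for LPS + G-CDs against control. With 3 libraries a group, differences of most members could be bounded only within the intervals given.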

Other observations

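Lists of genes next to the system gave further values. Of 8 genes for selenoprotein synthesis, on which Txnrd1 depends, 2 were called lower with LPS against control (beside 31.3% of all tested genes called and 15.6% called lower). Scly, which releases selenium from selenocysteine, went from 8.59 ± 1.46 to 5.37 ± 0.922 FPKM (log2 fold change -0.59, limma adjusted p = 0.019) and Pstk, a kinase of the selenocysteine transfer RNA, from 1.88 ± 0.391 to 0.932 ± 0.19 FPKM (-0.57, adjusted p = 0.035) (SD, n = 3). The Scly call was lost without control replicate 3 (adjusted p = 0.059) or LPS replicate 2 (0.078), and the Pstk call in 8 of 18 alternatives, among them those without any one of control replicates 1 and 3, the LPS replicates and LPS + G-CDs replicate 2 (0.058 to 0.12). None of the 8 was called by limma or voom between LPS + G-CDs and LPS, where 1 had an unadjusted p under 0.05 (15.2% of all tested genes), or between LPS + G-CDs and control, where 2 had (36.3% of all tested genes) and where 25.3% of all tested genes were called.

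Of 11 tested genes for oxidative folding in the endoplasmic reticulum, where Prdx4 works, 2 were called higher with LPS and none lower (18.2%, beside 31.3% of all tested genes called and 15.8% called higher). Ero1l, the oxidase that drives disulfide formation, rose from 41.2 ± 6.89 to 66.5 ± 4.6 FPKM (log2 fold change 0.69, adjusted p = 0.0075) and stood at 66.0 ± 5.24 FPKM in LPS + G-CDs. On TPM values the Ero1l call was lost (log2 fold change 0.43, adjusted p = 0.16). Qsox1, a sulfhydryl oxidase, rose from 6.26 ± 1.48 to 8.83 ± 0.593 FPKM (0.45, adjusted p = 0.042) (SD, n = 3). The Qsox1 call was lost in 10 of 18 alternatives, with adjusted p up to 0.41, among them those without any one of control replicates 2 and 3, the LPS replicates and LPS + G-CDs replicate 2 (0.071 to 0.14). None of the 11 was called by limma or voom between LPS + G-CDs and LPS, where 2 had an unadjusted p under 0.05, beside 15.2% of all tested genes.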
